A study of Mus musculus with 27 samples.

Results

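The fibroblast growth factor (FGF) genes described here are 10 in number: 4 ligand genes (Fgf15, Fgf9, Fgf1 and Fgf2), 3 receptor genes (Fgfr1, Fgfr2 and Fgfr3) and 3 Sprouty genes (Spry1, Spry2 and Spry4), which encode feedback inhibitors of the pathway. They were chosen by symbol and are 10 of the 38168 entries in the expression table, with 1 entry each. Whole retina was taken from wild type C57BL/6J mice, with no other genotype and no treatment, at 2 embryonic ages (E14, n = 3 libraries, and E17, n = 3) and 5 postnatal ages (P1, n = 4; P6, n = 3; P15, n = 4; P28, n = 4; P60, n = 6). Each library came from retinas pooled over several animals, except that at P60 some libraries came from single mice, and the sources used here do not say which ones. The methods give mixed sexes for the embryos and P1 and males from P6 on, so that sex and age cannot be told apart at the step from P1 to P6 or between the embryonic and the mature (P15, P28 and P60) libraries. Values are read counts scaled to the library total (CPM). The totals behind the CPM of the 27 libraries were 7077781 to 11332323 counted reads, so that 1 read was worth 0.0882 to 0.141 CPM. The paper gives a larger number of sequenced reads per library.

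FGF ligands bind receptor tyrosine kinases on the cell surface together with heparan sulfate, and the activated receptors signal through adaptor proteins to Ras and the MAP kinase cascade. Sprouty proteins are made in response to this signal and dampen it, which closes a negative feedback loop. In the eye, FGF signaling is known for its part in the specification of neural retina and lens, in the onset of retinal neurogenesis and in the protection of photoreceptors. FGF15 belongs to the endocrine branch of the family, FGF9 is a secreted paracrine ligand, and FGF1 and FGF2 lack a classical signal peptide and leave the cell by another route.

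The libraries carried the markers of retina at each age. The summed level of 6 rod genes was 17.9 to 29.6 CPM in the embryonic libraries (E14 and E17) and 17766 to 31389 CPM in the mature libraries (P15, P28 and P60). The summed level of 9 progenitor genes was 4924 to 5336 CPM in the embryonic, 4805 to 5220 CPM in the P1, 578 to 647 CPM in the P6 and 170 to 235 CPM in the mature libraries. Lens genes were low, and the 5 with an entry summed to at most 11 CPM in any embryonic or mature library. Crybb2 was at 0 in every embryonic library. The 8 pigment epithelium genes summed to 4.85 to 10.9 CPM in the embryonic and 15.8 to 84.1 CPM in the mature libraries, higher in the mature with no overlap.

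The 4 ligand genes fell into opposite patterns. Fgf15 had the highest level per kilobase of transcript of the 10 genes in the embryo and was close to or at 0 from P15 on, Fgf9 fell in a single step between P1 and P6, and Fgf1 and Fgf2 were low until P6 and then rose between P6 and P15.

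Fgf15 (Gene ID 14170, GRCm38 chr7:144896532-144900953, plus strand) is known from progenitors of the embryonic forebrain and retina and, in the gut, as a hormone that represses bile acid synthesis. Its level was 628, 571 and 637 CPM in the 3 E14 libraries, 373, 327 and 349 CPM at E17, and 79.4, 72.5, 73.6 and 73.2 CPM at P1. At P6 it was 0.706, 3.35 and 2.48 CPM, from 5 to 31 reads. Each of these ages was separate from the next, with no overlap between libraries. At P15 no library held more than 2 reads of Fgf15, at P28 all 4 libraries held 0 reads, and at P60 the lowest, median and highest values were 0.125, 0.208 and 1.22 CPM, from 1 to 11 reads. With the 3 reads per library that a count of 0 allows, the P28 mean was at most 0.401 CPM, and the E14 mean of 612 ± 36.1 CPM (SD, n = 3) was at least 1526-fold higher. These limits cover counting error only.

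Fgf15 fell at each of the first 4 steps. On the log2(CPM + 1) scale it changed by -0.81 (SE 0.24) from E14 to E17, -2.21 (SE 0.23) from E17 to P1, -4.68 (SE 0.23) from P1 to P6 and -1.39 (SE 0.23) from P6 to P15, with adjusted p of 0.0264, 1.66e-08, 2.94e-17 and 1.23e-05 (limma, Benjamini-Hochberg over all features tested). The first of these calls was lost when any 1 of the 6 embryonic libraries was left out, with adjusted p from 0.0565 to 0.106, and with a pseudocount of 0.1 (adjusted p = 0.494), whereas edgeR (quasi-likelihood, on read counts recovered from the CPM values) gave an adjusted p of 0.000301. The change of 0.47 from P28 to P60 did not pass the test (limma, adjusted p = 0.0970) but was called by edgeR (adjusted p = 0.0159) and without P60 replicate 1 (0.0465) or 2 (0.0475), on counts of 0 to 11 reads. Beside the fall of Fgf15 before birth and up to P1, the summed progenitor level stood at 5104 to 5203 CPM at E14 and 4805 to 5220 CPM at P1, and it fell between P1 and P6. The part of progenitor number in the Fgf15 level was not tested: in RNA from whole retina, fewer cells of a type and less RNA per cell cannot be told apart. An antisense gene, Gm26793, covers 761 bases (24.9%) of the annotated Fgf15 exons, and the sources used here do not state whether reads were counted by strand.

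Fgf9 (Gene ID 14180, chr14:58070671-58112854, plus strand) encodes a paracrine ligand made in the embryonic neural retina. It was 63.9, 66.2 and 60.4 CPM at E14, 61.9, 67.2 and 64.7 CPM at E17, and 74.8, 65.4, 63.3 and 64.5 CPM at P1. It was 22.6, 21.6 and 21.9 CPM at P6, 27.6, 25.0, 23.4 and 17.2 CPM at P15, and 25.0, 25.0, 23.4 and 25.5 CPM at P28. At P60 the lowest, median and highest values were 14.8, 22.4 and 26.8 CPM. The libraries formed a high set up to P1 and a low set from P6 on, with no value between 27.6 and 60.4 CPM and with overlap between all neighboring ages inside each set. The step from P1 to P6 was -1.56 on the log2(CPM + 1) scale (SE 0.14, limma adjusted p = 7.61e-11), and it was the only step of Fgf9 that passed the test.

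Fgf1 (Gene ID 14164, chr18:38838672-38929470, minus strand), which encodes acidic FGF, a ligand that binds all the FGF receptors, was low in the young retina. It was 1.90, 2.11 and 0.632 CPM at E14, 2.04, 1.41 and 1.86 CPM at E17, 1.84, 1.39, 2.71 and 1.89 CPM at P1, and 4.95, 4.65 and 3.17 CPM at P6. It then reached 36.9, 34.2, 42.1 and 37.8 CPM at P15, 44.0, 43.0, 44.6 and 37.6 CPM at P28, and a lowest, median and highest value of 28.5, 34.9 and 39.2 CPM at P60. The P6 libraries all lay above the P1 libraries and below the P15 libraries, and the 3 mature ages overlapped one another. The step from P1 to P6 was 0.83 (SE 0.18) and that from P6 to P15 was 2.90 (SE 0.18) on the log2(CPM + 1) scale (limma, adjusted p = 0.000442 and 5.86e-14). The mean over the 14 mature libraries, 37.5 ± 4.77 CPM (SD), was 22.6 times the mean of 1.66 ± 0.560 CPM over the 6 embryonic libraries.

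Fgf2 (Gene ID 14173, chr3:37348477-37410106, plus strand), which encodes basic FGF, known as a survival factor for photoreceptors, showed the same late step. It was 5.10, 5.59 and 4.84 CPM at E14, 3.99, 2.82 and 3.42 CPM at E17, 3.31, 5.55, 4.30 and 5.20 CPM at P1, and 5.37, 4.0 and 5.24 CPM at P6. It was 29.8, 26.7, 30.4 and 26.9 CPM at P15, 31.7, 39.5, 39.1 and 32.1 CPM at P28, and had a lowest, median and highest value of 29.2, 35.3 and 39.1 CPM at P60. All libraries up to P6 lay at or below 5.59 CPM and all later ones at or above 26.7 CPM. The step from P6 to P15 was 2.33 on the log2(CPM + 1) scale (SE 0.15, limma adjusted p = 7.06e-14). A fall of 0.49 from E14 to E17 also passed the test (limma, adjusted p = 0.0409), but not when E14 replicate 1, 2 or 3 or E17 replicate 2 or 3 was left out (adjusted p from 0.0650 to 0.216), nor with the replicate block (0.0544).

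Without a stated use of strand, reads of Fgf2 cannot be told apart from those of Nudt6 where they overlap. Nudt6 is a gene on the opposite strand that shares 640 bases (9.44%) of the annotated Fgf2 exons. Of the 2 entries named Nudt6, the one with the higher mean was used, and it followed Fgf2 library by library. Its CPM, not scaled to transcript length, was 0.717 to 0.923 times that of Fgf2, with a median of 0.811. The step of this Nudt6 entry from P6 to P15 was 2.27 on the log2(CPM + 1) scale (limma, adjusted p = 2.91e-12). The part of Nudt6 reads in the rise of Fgf2 was not tested. Beside the rise of Fgf1 and Fgf2 between P6 and P15, other sums rose as well. The 8 Müller glia genes summed to 615 to 648 CPM at P6 and 1445 to 1622 CPM at P15, the 6 rod genes to 2776 to 3596 and 17766 to 18947 CPM, and the 8 pigment epithelium genes to 29.5 to 48.5 and 51.5 to 84.1 CPM. Before P6, with Fgf1 and Fgf2 low, the Müller glia genes summed to more than at P6. Their sum was 828 to 848 CPM at E14, 867 to 907 CPM at E17 and 885 to 924 CPM at P1. This sum does not speak for each gene on the list, and the genes were not compared singly. Aqp4, which is on it, had means of 0.304 CPM at E14, 0.736 CPM at P1, 4.41 CPM at P6 and 126 CPM at P15. The part of Müller glia, rods and pigment epithelium in the rise of Fgf1 and Fgf2 was not tested.

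**Figure D1:**
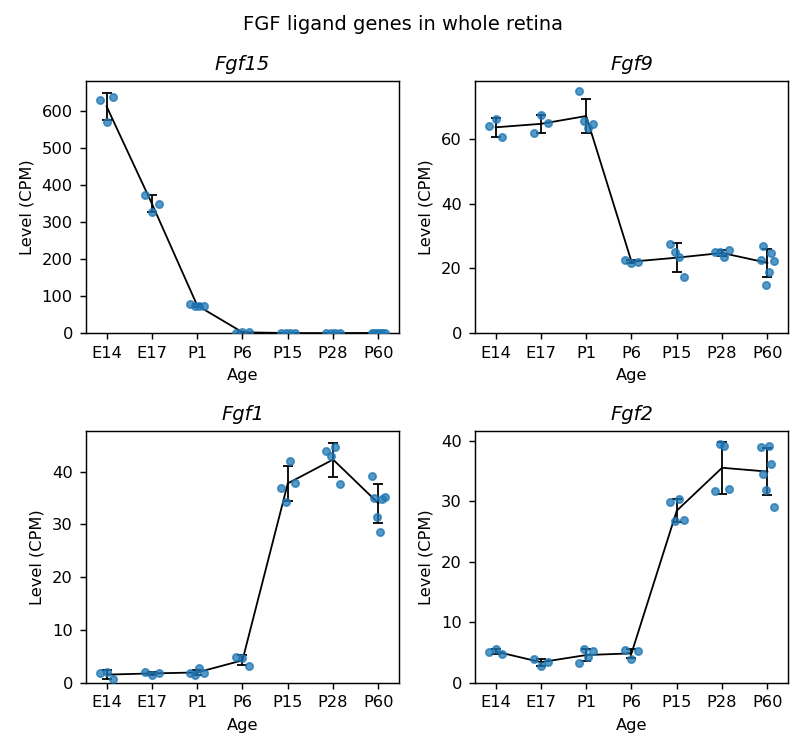
Levels of the 4 FGF ligand genes (CPM, vertical axis from 0) at the 7 ages, 1 point a library, with bars for the mean ± SD and a line through the means. Fgf15 drops from a mean of 612 CPM at E14 to 0 at P28, Fgf9 steps down between P1 and P6, and Fgf1 and Fgf2 step up between P6 and P15.

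The 3 receptor genes were all lower in the mature than in the embryonic retina, with changes of -1.39 to -1.03 on the log2(CPM + 1) scale, and the steps that passed the test differed in part: Fgfr1 fell and Fgfr3 rose from P1 to P6, and Fgfr2 and Fgfr3 fell from P6 to P15. Fgfr1 (Gene ID 14182, chr8:25518759-25575718, plus strand) had the highest level per kilobase of transcript of the 3 at every age. It was 46.0, 43.0 and 45.5 CPM at E14, 38.4, 36.2 and 42.1 CPM at E17, 31.8, 34.3, 31.1 and 29.5 CPM at P1, and 18.1, 14.7 and 13.9 CPM at P6. It was 15.5, 15.7, 13.6 and 12.5 CPM at P15, 13.3, 13.8, 16.2 and 14.0 CPM at P28, and had a lowest, median and highest value of 13.6, 18.4 and 23 CPM at P60. The libraries of E14, E17, P1 and P6 formed 4 separate levels in falling order, while those of P6 and later overlapped. The step from P1 to P6 was -0.98 on the log2(CPM + 1) scale (SE 0.14, limma adjusted p = 6.99e-07) and was the only one past the threshold in this fit. The change of -0.29 from E17 to P1 was called when only these ages entered the fit (limma, adjusted p = 0.0384). The difference of 0.30 between P28 and P60 was not called (limma, adjusted p = 0.0835), but it was without P60 replicate 1 (0.0163) or 2 (0.0248) and with edgeR (0.0487).

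Fgfr2 (Gene ID 14183, chr7:130162451-130266808, minus strand), which with Fgfr1 is needed for early eye morphogenesis, was 14.1, 10.5 and 10.9 CPM at E14 and 13.4, 11.4 and 12.4 CPM at E17. It was between 7.35 and 10.1 CPM at P1, between 5.65 and 7.57 CPM at P6, and between 1.89 and 5.77 CPM in the 14 mature libraries. Every embryonic library lay above every mature one. Its decline was spread over several steps, of which that from P6 to P15 passed the test at -0.66 on the log2(CPM + 1) scale (SE 0.21, limma adjusted p = 0.0139). That call was lost without P6 replicate 1 (0.0586), P6 replicate 2 (0.0645) or P15 replicate 1 (0.0566). The change of -0.53 from E17 to P1 was called only when the fit was limited to these ages (limma, adjusted p = 0.0264). The annotation also has a transcript that shares 314 bases of Fgfr2 exons with Ctbp2 on the same strand.

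Fgfr3 (Gene ID 14184, chr5:33721724-33737068, plus strand), known from astrocytes and radial glia, had the lowest level per kilobase of the receptors, with 1 to 62 reads a library. It was 2.7, 4.01 and 6.53 CPM at E14, 1.02, 1.5 and 1.45 CPM at E17, and 0.491, 1.39, 1.13 and 0.591 CPM at P1. It was 2.54, 3.14 and 2.48 CPM at P6, 0.669, 1.19, 0.974 and 0.825 CPM at P15, and 0.533, 0.562, 1.08 and 0.754 CPM at P28. At P60 the lowest, median and highest values were 0.137, 0.362 and 1.05 CPM. Fgfr3 thus had a second, smaller maximum at P6, whose 3 libraries lay above every library of P1 and of P15. It fell by 1.16 from E14 to E17 (SE 0.25), rose by 0.99 from P1 to P6 (SE 0.23) and fell by 0.96 from P6 to P15 (SE 0.23) on the log2(CPM + 1) scale, with adjusted p of 0.00107, 0.000800 and 0.00145 (limma). The summed level of 4 astrocyte genes moved alongside, at 21.7 to 36.0 CPM at P1, 48.6 to 57.8 CPM at P6 and 17.6 to 24.9 CPM at P15, and its part in the Fgfr3 level was not tested. At E14, where Fgfr3 was highest, the same astrocyte genes summed to 6.80 to 9.05 CPM. G630022F23Rik, on the opposite strand, covers 998 bases (13.9%) of the Fgfr3 exons.

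The 3 Sprouty genes did not move together. From the embryonic to the mature retina Spry1 fell and Spry2 rose, and the change of Spry4 did not pass the test. The 250 bases before the start of Spry1 and of Spry2 (RefSeq, GRCm38.p6) are given because these paralogs, which both act as inhibitors below FGF receptors, changed in opposite directions. Capitals mark GGGCGG, the letters of a GC box, and CCAAT, each on either strand, and no match overlaps another.
Spry1, chr3:37639697-37639946, plus strand: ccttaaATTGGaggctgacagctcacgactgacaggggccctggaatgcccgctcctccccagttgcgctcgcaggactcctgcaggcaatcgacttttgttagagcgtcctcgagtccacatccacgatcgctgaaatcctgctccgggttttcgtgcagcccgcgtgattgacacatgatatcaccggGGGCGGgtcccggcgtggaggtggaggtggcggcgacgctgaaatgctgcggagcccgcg
Spry2, chr14:105896820-105897069, minus strand: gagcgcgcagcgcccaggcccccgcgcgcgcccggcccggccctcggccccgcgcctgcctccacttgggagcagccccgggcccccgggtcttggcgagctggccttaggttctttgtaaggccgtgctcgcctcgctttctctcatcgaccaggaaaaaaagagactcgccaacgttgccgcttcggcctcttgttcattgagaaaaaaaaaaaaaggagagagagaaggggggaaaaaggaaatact

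The Spry1 window holds both motifs and the Spry2 window neither. Among 32851 promoter windows of the same length, 32.7% hold GGGCGG, 33.8% hold CCAAT and 12% hold CCGGAA, the letters of a core ETS site. Windows were at hand for 6 of the 10 genes: GGGCGG is in those of Fgf2, Fgfr3 and Spry1, CCAAT in those of Fgfr3 and Spry1, and CCGGAA in none. These are matches of letters and say nothing on binding.

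Spry1 (Gene ID 24063, chr3:37639947-37644599, plus strand) was 8.80, 8.86 and 11.2 CPM at E14, 6.65, 9.0 and 9.22 CPM at E17, and 12.5, 13.6, 13.6 and 9.94 CPM at P1. It was 7.91, 8.87 and 5.93 CPM at P6, 5.89, 5.93, 6.94 and 5.22 CPM at P15, and 4.13, 6.32, 4.60 and 3.27 CPM at P28. At P60 the lowest, median and highest values were 2.34, 3.99 and 5.21 CPM. Spry1 was highest at P1 and lowest at P60, and each age overlapped the next in the order of means. The step from P1 to P6 was -0.65 on the log2(CPM + 1) scale (SE 0.20, limma adjusted p = 0.010). It was not called without P6 replicate 3 (0.0856). The rise of 0.53 from E17 to P1 passed the test only with the replicate block (0.0263) or when the fit was limited to these ages (0.0413). Gm42922, on the opposite strand, covers 710 bases (24.4%) of the annotated Spry1 exons.

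Spry2 (Gene ID 24064, chr14:105891947-105896819, minus strand) was 15.1, 15 and 18.0 CPM at E14, 22, 25.1 and 27.3 CPM at E17, and 28.8, 32.1, 28.6 and 34.7 CPM at P1. It was 28.1, 27.1 and 28.1 CPM at P6, 34.8, 40.3, 41.0 and 39.0 CPM at P15, and 29.0, 31.2, 29.8 and 25.1 CPM at P28. At P60 the lowest, median and highest values were 24.2, 26.2 and 35.4 CPM. The E14 libraries lay below all others, and the P15 libraries lay above all others but P60 replicates 3 and 4, which were above P15 replicate 1. Spry2 rose by 0.60 from E14 to E17 (SE 0.13) and by 0.46 from P6 to P15 (SE 0.13), and fell by 0.42 from P15 to P28 (SE 0.12), on the log2(CPM + 1) scale, with adjusted p of 0.00200, 0.00435 and 0.0428 (limma). The last of these calls was lost when any library of these ages but P15 replicate 1 was left out (adjusted p from 0.0545 to 0.180) and with edgeR (0.0982).

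Spry4 (Gene ID 24066, chr18:38586247-38601347, minus strand) varied least over development. It was 11.3, 13.3 and 10.5 CPM at E14, 8.69, 11.9 and 9.53 CPM at E17, 14.7, 11.2, 11.2 and 14.3 CPM at P1, and 7.21, 10.4 and 8.69 CPM at P6. It was 11.8, 12.5, 11.3 and 10.3 CPM at P15, 9.46, 8.14, 10.1 and 8.92 CPM at P28, and 10.4, 16.5, 16.6, 20.1, 17.3 and 14.3 CPM at P60. All 6 P60 libraries lay above the P28 libraries, though P60 replicate 1 did so only narrowly. The step from P28 to P60 was 0.71 on the log2(CPM + 1) scale (SE 0.14, limma adjusted p = 0.00446), and it was not called when only these ages entered the fit (0.149). A fall of 0.51 from P1 to P6 (SE 0.17, limma adjusted p = 0.0163) was lost without P1 replicate 1 (0.0556) or P6 replicate 1 (0.120). In the P60 libraries the pigment epithelium genes summed to 15.8 to 60.7 CPM and the lens genes to 2.26 to 11 CPM, and their part in the Spry4 level was not tested.

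**Figure D2:**
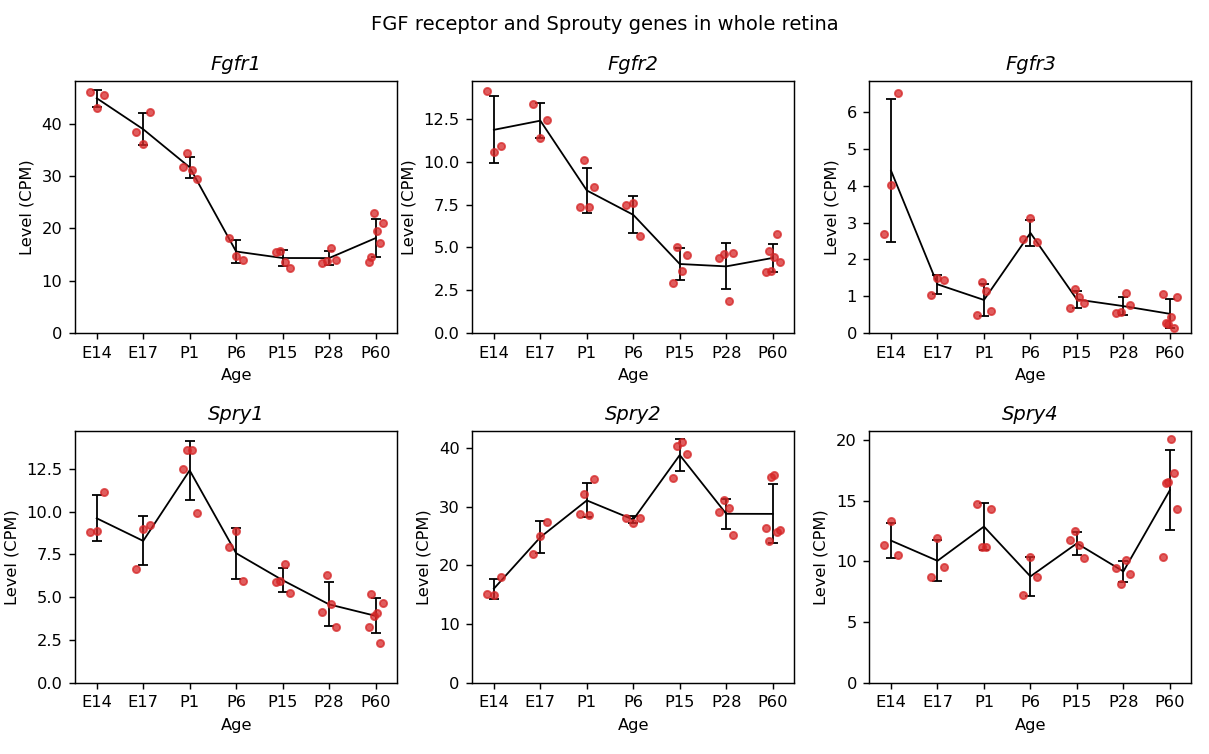
Levels of the 3 receptor and 3 Sprouty genes (CPM, vertical axes from 0 with a scale for each gene) at the 7 ages, 1 point a library, with bars for the mean ± SD and a line through the means. The receptors end below their E14 level, Fgfr3 shows a second maximum near 2.72 CPM at P6, Spry1 peaks at P1, Spry2 peaks at P15 and Spry4 is highest at P60.

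The comparison of the embryonic with the mature retina asks which of the genes ended at another level than they began. Of the 10 genes 9 passed the test (limma, adjusted p under 0.05), 3 of them higher in the mature retina (Fgf1, Fgf2 and Spry2) and 6 lower (Fgf15, Fgf9, Fgfr1, Fgfr2, Fgfr3 and Spry1). Over all features tested 75.4% passed, 35% higher and 40.4% lower, so that this count is near what the table as a whole gave. With a further limit of an absolute log2 fold change of 1, 7 of the 10 genes were called, 2 higher and 5 lower, against 31% of all features. In 6 genes (Fgf15, Fgf9, Fgf1, Fgf2, Fgfr1 and Fgfr2) no embryonic library fell within the range of the mature ones or the reverse, against 40.4% of all features. The median log2 fold change of the 10 genes was -0.91, and that of all features was -0.06.

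The sizes of the changes, on the log2(CPM + 1) scale, spanned a wide range. Fgf15 had the largest at -8.64 (SE 0.15), followed by Fgf1 at 3.90 (SE 0.12) and Fgf2 at 2.7 (SE 0.10). Fgf9 at -1.44 (SE 0.09), Fgfr2 at -1.39 (SE 0.13), Fgfr1 at -1.38 (SE 0.09) and Fgfr3 at -1.03 (SE 0.15) were of middle size, and Spry1 at -0.79 (SE 0.13) and Spry2 at 0.64 (SE 0.08) were smaller, with overlap between the groups in Fgfr3, Spry1 and Spry2. Adjusted p for these 9 genes ran from 1.08e-30 to 2.04e-06 (limma). The place of Fgfr3 below the other receptors depends on the scale, since its embryonic and mature means were 2.87 and 0.695 CPM. With a pseudocount of 0.1 its change was -1.70, against -1.58 for Fgfr2 and -1.44 for Fgfr1. With edgeR the 3 changes were -1.66, -1.46 and -1.33 in the same order. Spry4 changed by 0.12 (SE 0.11), with a 95% interval of -0.10 to 0.34 and an adjusted p of 0.323 (limma).

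Calls at the steps between neighboring ages were most frequent from P1 to P6 and from P6 to P15, as they were over all features. From E14 to E17, 4 of the 10 genes passed the test (Fgf15, Fgf2 and Fgfr3 lower, Spry2 higher), against 10.6% of all features (7.56% higher and 3.02% lower). From E17 to P1 Fgf15 alone passed, and was lower, against 9.21% of all features (5.77% higher and 3.43% lower). From P1 to P6 there were 7 calls (Fgf15, Fgf9, Fgfr1, Spry1 and Spry4 lower, Fgf1 and Fgfr3 higher), against 38.3% of all features (18% higher and 20.4% lower). From P6 to P15 there were 6 (Fgf15, Fgfr2 and Fgfr3 lower, Fgf1, Fgf2 and Spry2 higher), against 33.4% (14.4% higher and 19% lower). After P15 the calls were Spry2, lower from P15 to P28, against 2.72% (1.14% higher and 1.58% lower), and Spry4, higher from P28 to P60, against 12.9% (4.8% higher and 8.11% lower). When only P28 and P60 entered the fit, 7 of 31760 features passed, and Spry4 was not among them. Over all 7 ages each of the 10 genes passed the F test, as did 83% of all features, and age held from 68.0% (Spry4) to 99.5% (Fgf15) of the variance of a gene's log2 level.

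**Figure D3:**
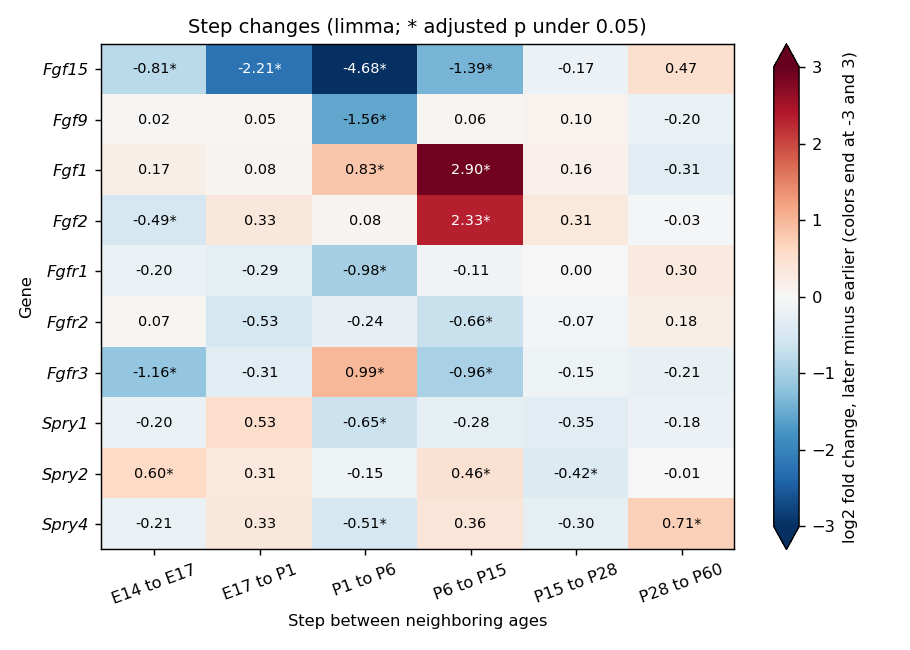
Log2 fold changes of the 10 genes (rows) at each of the 6 steps between neighboring ages (columns), later minus earlier, from the limma fit on log2(CPM + 1), with red for higher and blue for lower and an asterisk for an adjusted p under 0.05. Most asterisks lie in the columns P1 to P6, with 7, and P6 to P15, with 6. These steps also held the largest shares of calls over all features, 38.3% and 33.4%.

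Genes of like role were then compared with each other by the log2 ratio of their levels within each library, between the 6 embryonic and 14 mature libraries. Of 9 pairs, 5 changed their ratio (two-sided exact permutation test, 38760 regroupings, Benjamini-Hochberg over the 9 pairs). Fgf1 gained on Fgf9 by 5.33, Fgf2 gained on Fgf9 by 4.16 and Fgf1 gained on Fgf2 by 1.17, and Spry1 lost 1.45 against Spry2. Each of these 4 had an adjusted p of 5.8e-05 by the exact permutation test, from a p of 2.58e-05, the smallest this test can give. Spry1 changed by -1.0 against Spry4 (exact permutation test, adjusted p = 0.00158). Fgf1 and Fgf2 rose and Fgf9 fell with no overlap between the groups, so their ratios to Fgf9 had to separate. Those ratios add no support to the changes of the single genes. The ligand pairs share genes and are not independent of each other.

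The receptor ratios showed no change past the threshold. The log2 ratio of Fgfr1 to Fgfr2 was 1.71 ± 0.199 (SD, n = 6) in the embryonic and 1.73 ± 0.410 (SD, n = 14) in the mature libraries, a difference of 0.02 (exact permutation test, adjusted p = 0.928). That of Fgfr1 to Fgfr3 differed by -0.29 (exact permutation test, adjusted p = 0.317) and that of Fgfr2 to Fgfr3 by -0.31 (0.346), with a spread of 0.634 and 0.820 between the embryonic libraries. Spry2 to Spry4 differed by 0.45 (exact permutation test, adjusted p = 0.0967). A p above the threshold does not show that these ratios stayed equal. The mature and the embryonic libraries each pool several ages, and the spread between them includes those ages.

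Apart from the ratios within a library, levels of different genes were set side by side only per kilobase of the longest coding transcript (CPM per kb). At E14 Fgf15 stood at 338 ± 19.9, far above Fgf9 at 17.7 ± 0.817, Fgfr1 at 8.90 ± 0.314 and Spry2 at 7.68 ± 0.818 (SD, n = 3), while Fgf2 at 0.867 ± 0.0637 and Fgf1 at 0.389 ± 0.201 were the lowest of the 10. At P28 the order of CPM per kb was led by Spry2 at 13.8 ± 1.24, then Fgf1 at 10.6 ± 0.807, Fgf9 at 6.89 ± 0.256 and Fgf2 at 5.96 ± 0.716 (SD, n = 4). The receptors stood below these 3 ligands at P28 and above Fgf15, which was at 0, with Fgfr1 at 2.84 ± 0.259, Fgfr2 at 0.903 ± 0.310 and Fgfr3 at 0.173 ± 0.0596 CPM per kb. The P28 means of Fgf9 and Fgf2 lay within 2 SD of each other by the SD of Fgf2 but not by that of Fgf9. The order of their means was the same at P15, P28 and P60.

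The other genes of the pathway were taken from a list of 74, of which 69 had an entry and 65 passed the filter on low values. Fgf4, Fgf6, Fgf16, Fgf21 and Spry3 were not analysed here, and Fgf5, Fgf17, Fgf23 and Fgfbp1 did not pass the filter. From the embryonic to the mature retina 52 of the 65 passed the test (limma), 18 higher and 34 lower, against the 75.4% of all features, with a median log2 fold change of -0.29. At the steps in order of age 8, 6, 37, 26, 2 and 16 of the 65 were called. Over all features the shares called at these steps were 10.6%, 9.21%, 38.3%, 33.4%, 2.72% and 12.9%. The steps from P1 to P6 and from P6 to P15 thus held the most calls in the table as a whole, as in the 65 and the 10 genes. The examples below are those with the largest rise and fall in each role, as log2 fold changes from the embryonic to the mature retina, with adjusted p of 0.00442 or less (limma) unless a value is given.

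Of 7 other ligands 2 rose and 3 fell. Fgf3, a ligand known from inner ear development, fell by 3.87, from a mean of 30.2 CPM at E14 to 0.426 CPM at P15. Fgf8, an organizer signal of the embryonic brain, and Fgf18 each fell by 0.78, while Fgf10 rose by 0.98 and Fgf20 by 0.59. These genes were low, and the log2(CPM + 1) scale understates their changes. Embryonic and mature means were 0.960 and 0.127 CPM for Fgf8 and 1.66 and 0.516 CPM for Fgf18. They were 0.412 and 1.80 CPM for Fgf10 and 1.94 and 3.49 CPM for Fgf20. The 4 intracellular homologs, which bind sodium channels rather than FGF receptors, divided evenly: Fgf11 (1.65) and Fgf12 (1.0) rose and Fgf13 (-0.65) and Fgf14 (-0.33) fell, the last not without the P60 libraries. Among other receptors and co-receptors, Fgfrl1, a receptor without a kinase domain, fell by 1.82, Kl, the co-receptor klotho, rose by 1.16, and Fgfr4 stood at 0.19 (limma, adjusted p = 0.226).

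Of 14 genes for heparan sulfate synthesis and carriers 5 rose and 4 fell. The extracellular sulfatases went opposite ways, with Sulf1 at 1.61 and Sulf2 at -1.62. The glypican gene Gpc1 fell by 1.61 and the sulfotransferase gene Hs6st2 by 1.07, while Hs3st1 rose by 0.87 and the syndecan gene Sdc2 by 0.50. Of 18 adaptor and Ras-MAPK genes 4 rose and 11 fell. Nras (-2.20), the adaptor Gab1 (-1.19) and Grb2 (-0.79) had the largest falls, and the kinase gene Araf (1.27), the adaptor Frs3 (0.68) and Map2k1 (0.40) the largest rises.

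All 10 other feedback inhibitors passed the test, 2 higher and 8 lower. Il17rd, which encodes the membrane inhibitor Sef, fell by 2.56, Dusp6, which encodes a phosphatase of ERK, fell by 2.12, and Spred2, a Sprouty relative, fell by 1.56, whereas Dusp5 rose by 1.42 and Spred3 by 0.80. Of 8 transcriptional targets 2 rose and 5 fell. The ETS factor genes Etv5 (-1.99), Etv1 (-1.80) and Etv4 (-0.74), which are used as readouts of FGF signaling, all fell. Etv4 did not fall steadily: its mean was lowest at P6, at 0.860 CPM, and was 2.82 CPM at P15 and 4.80 CPM at P60. Its P60 libraries, at 3.52 to 8.03 CPM, overlapped those of E14, at 4.96 to 6.60 CPM. Ccnd1, the cyclin D1 gene, fell by 6.27, from 1438 CPM at E14 to 15.4 CPM at P15; it is also on the progenitor list. The immediate early genes Egr1 (3.93) and Fos (3.36) rose, and both respond to many signals other than FGF. Spry1 and the readout genes Dusp6, Etv1, Etv5 and, with overlap at P60, Etv4 thus were lower on average in the mature retina, where Spry2 was higher. The progenitor sum was lower there as well, and its part in these levels was not tested.

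**Figure D4:**
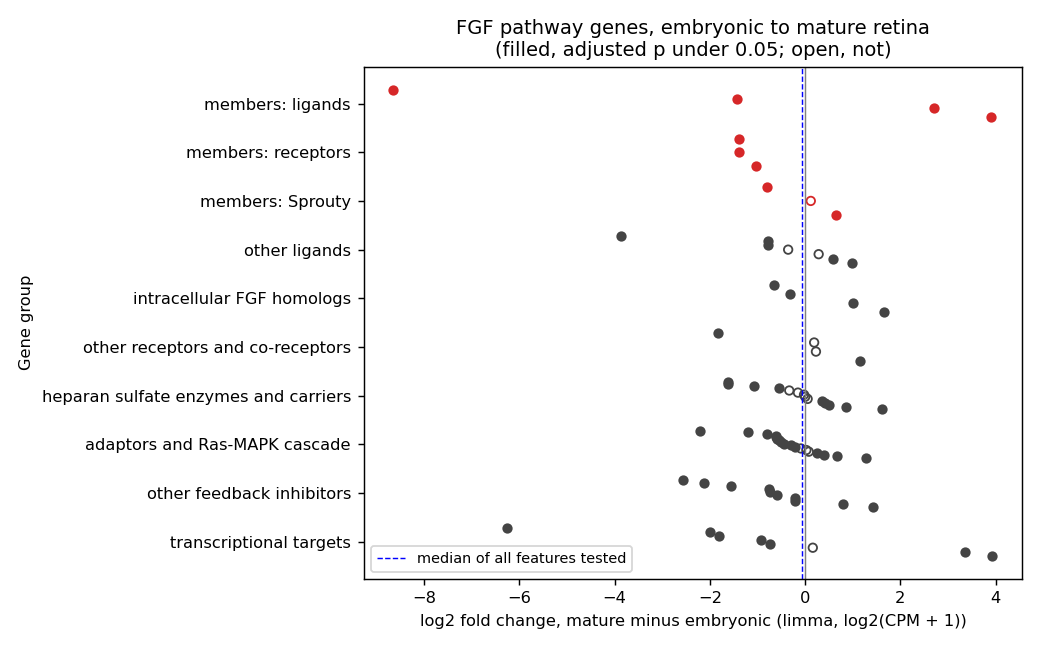
Log2 fold change from embryonic to mature retina (horizontal axis, limma on log2(CPM + 1)) of the 10 genes (red) and 65 other FGF pathway genes (gray), in rows by role, filled where the adjusted p is under 0.05. All 3 receptor points lie left of 0, the ligands span -8.64 to 3.90, and 8 of 10 other feedback inhibitors lie left of 0; the dashed line is the median of all features, -0.06.

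The features whose log2 level ran closest to each gene over the 27 libraries were listed as a description, since libraries of an age share its many other changes. For Fgf15 they were Aldh1a3, a gene for retinoic acid synthesis (Pearson r = 0.992), and Serinc2 (0.992), and for Fgf9 they were Depdc1a (0.985) and the condensin gene Smc4 (0.976). For Fgf1 they were the water channel gene Aqp4 (0.992), which is also on the Müller glia list, and Bcl6 (0.991). For Fgf2 they were Nudt6 (0.999), which overlaps it on the opposite strand, and the water channel gene Aqp1 (0.991). Reads of Fgf2 and Nudt6 cannot be told apart where they overlap, and the part of such reads in this r was not tested. For Fgfr1 they were the DNA polymerase gene Pold3 (0.972) and Zhx2 (0.972), and for Fgfr2 they were Skiv2l2 (0.945) and Fam171a2 (0.936). The receptor Fgfr3 had looser partners, Gm3014 (0.901) and Pakap (0.843). For Spry1 they were Rhob (0.942) and Adam12 (0.919), for Spry2 Mmp17 (0.879) and Mtss1l (0.878), and for Spry4 Tsc2 (0.757) and Gsk3a (0.729).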

How the data were processed

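The deposited table gives CPM values (read counts scaled to the library total) for 38168 features in 27 libraries of whole mouse retina. The authors made total RNA libraries with a SMARTer kit, sequenced single-end reads and, per the labels, aligned them with STAR to mm10; the gene annotation and the use of strand behind the table are not given in the sources used here. Every value was a whole multiple of 1 read (100% within 0.01 of a whole number), so read counts and library totals (median 7969873) were recovered from the deposited CPM. Of the features, 14905 have no Gene ID and 926 symbols are repeated.

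Values were tested as log2(CPM + 1), keeping features that reached 1 CPM in 3 or more libraries, with limma 3.58.1 (mean-variance trend, R 4.3.3) and Benjamini-Hochberg adjustment over 31760 features. Calls had an adjusted p under 0.05. All 27 libraries entered each fit, and age was the only factor. Fold changes on this scale understate those of low genes. P-values measure the spread between these libraries. Ratios of genes within a library were tested by exact permutation in Python 3.11.15 with numpy 2.4.6. Alternatives were a pseudocount of 0.1, no filter, a filter at a mean of 10 CPM, median-of-ratios scaling, a replicate block, edgeR 4.0.16 (quasi-likelihood, TMM) on the recovered reads, only the ages compared, repeated symbols summed, and each library left out. Fits without E14 replicate 1 (edgeR) and without the P60 libraries were added after seeing the data. The limma fit, but not edgeR, was run on simulated reads with 200 features changed by a log2 fold of 1.5. All 200 were called from embryonic to mature, with 5 false calls, and from P1 to P6, with 9. The simulation used the same spread setting for all features and far fewer changed features than these data, so it does not stand for them in full.

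Positions, transcript lengths and exon overlaps came from GRCm38 annotation (RefSeq and GENCODE), and promoter windows from RefSeq GRCm38.p6. The genes, the pathway and marker lists and the tests were chosen with earlier results of these data known. Named pathway genes are, in each role, the 3 called genes that rose most and the 3 that fell most, plus Spry3, Dusp6, Etv1, Etv4, Etv5, Fgfr4 and Fgfrl1; named neighbors are the 2 features with a Gene ID and the highest Pearson r. Ganglion cell, blood and vessel marker sums, computed like the others, were 863 to 1166, 12.5 to 20.8 and 165 to 336 CPM in the embryonic and 453 to 772, 19.9 to 43.3 and 202 to 240 CPM in the mature libraries. Libraries with the same replicate number did not deviate together: over 69 pairs the correlation of their deviations from the age means was -0.13 to 0.17 (median -0.002), so the numbers do not pair the libraries.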

Additional observations from a re-analysis of the deposited data

Results flagged for a closer look

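Among the 39 sets of 4 or 6 libraries checked (each gene at each age with at least 4 libraries and more than 1 value), 2 had a library far from the others by Dixon's criterion, about as many as the 1 in 20 that chance gives. Fgf15 at P1 replicate 1 was 79.4 CPM, with the other 3 libraries between 72.5 and 73.6 CPM, a gap of 0.836 of the whole range. Fgfr2 at P28 replicate 3 was 1.89 CPM, from 14 reads, with the others between 4.40 and 4.65 CPM, a gap of 0.908 of the range.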

How the results depend on the processing

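From the embryonic to the mature retina, the 9 calls among the 10 genes held without any 1 library, and 6 to 9 were made under the other settings, 6 of them where the filter at a mean of 10 CPM left 7 of the genes to test. The pathway count of 52 ran from 50 to 54 without a library and from 40 to 55 otherwise. The calls from P1 to P6 (5 to 7) and P6 to P15 (4 to 6) and over the 7 ages (7 to 10) stayed within 1.5 times the main counts, and 5 or 6 of the gene pairs were called throughout.

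Smaller steps depended on the setting. From E14 to E17, 2 to 3 of the 10 genes were called without a library, against 4, and 4 to 7 pathway genes, or 19 with only the ages compared, against 8. From E17 to P1 the 1 call became 2 with the replicate block and 4 with only the ages compared, and the pathway count of 6 became 11 with only the ages compared and 4 to 7 without a library. From P15 to P28 the 1 call (Spry2) became 0 with the pseudocount of 0.1, median-of-ratios scaling, edgeR and edgeR without E14 replicate 1 (2 genes then had an unadjusted p under 0.05 in each, limma and edgeR alike) and was 0 to 1 without a library; the pathway count of 2 became 1 with that scaling, edgeR and edgeR without E14 replicate 1, and 1 to 2 without a library. From P28 to P60 the 1 call (Spry4) became 2 with the pseudocount of 0.1, 3 with edgeR, 2 with edgeR without E14 replicate 1, 1 to 3 without a library, and 0 in limma with only the ages compared (3 at an unadjusted p under 0.05). The pathway count of 16 there became 2 with the replicate block, 0 in limma with only the ages compared (20 at an unadjusted p under 0.05) and 4 to 25 without a library. Over all 31760 features the 4100 calls at this step became 1029 with the replicate block and 7 with only the ages compared. The causes were not tested.

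Some differences that passed no test changed sign. Spry4 from embryonic to mature retina was -0.068 without the P60 libraries. With a pseudocount of 0.1 the change of Fgfr1 against Fgfr3 was 0.37 and that of Fgfr2 against Fgfr3 was 0.21. Fgfr1 against Fgfr2 ran from -0.048 to 0.068 when a library was left out, and was below 0 without E17 replicate 1 or 2, P15 replicate 1, P28 replicate 3, or P60 replicate 3 or 6.

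The median change of all features from embryonic to mature retina was -0.06 in limma and 0.04 in edgeR. From P28 to P60 37.2% of all calls were higher at P60 in limma, 51.6% with median-of-ratios scaling and 60.8% with edgeR. The replicate numbers do not pair the libraries (7 of 27 correlated best with their own number), so fits with the block are given as alternatives only. Fgfr3 and, from P6 on, Fgf15 rested on few reads, and differences of a few reads were not detectable at this depth.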
